A study of Homo sapiens with 4 samples.

Results

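The genes described here are 52 genes of DNA replication origins and forks. They were chosen by name, from general knowledge of the replication machinery, and each was read from the array feature that carries its gene symbol. All 52 were measured, each by 1 feature, among the 21448 features of the array. No feature was removed for a low value, and 51 of the 52 lay above the median level of all features, with POLE below it. When all features were ranked by mean level and split into 4 bins of about equal size, 22 of the genes fell in the third and 29 in the brightest bin, and POLE fell in the second.

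The study measured total RNA of HeyA8-MDR cells, a human ovarian carcinoma line grown under paclitaxel, on Affymetrix Clariom S arrays in 4 samples. In 2 samples the cells had been given an inhibitor of miR-204-5p, a microRNA, and in the other 2 a control microRNA inhibitor. Cells of both groups came from 1 line kept in RPMI medium, with paclitaxel at 300 ng/ml, fetal bovine serum at 15% and gentamicin sulfate at 0.1%. The treatment note is the same for all 4 samples, so the inhibitor group rests on the miR204 label in the sample titles and the control group on the design text. The dose and duration of the inhibitor are not given in the labels. Nothing in the labels says that the 2 arrays of a group were separate cultures, and a p-value here can reflect no more than how these arrays scatter, possibly for technical reasons. The level of the microRNA itself was not analysed here. Its mature sequence from RefSeq (GRCh38.p14) is shown because it is the target of the inhibitor, with the seed, bases 2 to 8, in capitals, above that of miR-211-5p, which has the same seed.
hsa-miR-204-5p, chr9:70810031-70810052, minus strand: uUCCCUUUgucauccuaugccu
hsa-miR-211-5p, chr15:31065095-31065116, minus strand: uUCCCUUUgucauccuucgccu

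DNA is copied from many origins. In the G1 phase the origin recognition complex, with CDC6 and CDT1, loads rings of the proteins MCM2 to MCM7 onto DNA, and in S phase kinases let CDC45 and the GINS complex join each ring to form the active helicase, called CMG. Polymerase alpha-primase then lays primers, polymerases epsilon and delta extend them, replication factor C loads the sliding clamp PCNA, and ribonucleotide reductase and thymidylate synthase supply deoxynucleotides. Many of these genes are transcribed mainly in proliferating cells, under E2F transcription factors, which bind sites of the kind TTTGGCGC near their transcription starts. In a bulk RNA sample, fewer cells in S phase and less of these transcripts per cell cannot be told apart.

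Markers of the labelled line were mixed. The keratins KRT8, KRT18 and KRT7 lay between 10.30 and 11.45 log2 units on all 4 arrays and the ovarian lineage factor PAX8 between 8.31 and 8.51, but the keratin KRT19 (4.96 to 5.62) and MUC16 (4.35 to 4.86) lay in the second bin of features. EPCAM was in the dimmest bin (2.93 to 3.87), while the mesenchymal gene VIM lay between 11.69 and 12.00. ABCB1, the drug efflux pump for which such lines are known, lay between 7.55 and 7.77. Of 11 markers of endothelial cells, leukocytes and fibroblasts, 3 lay in the dimmest bin (KDR, PTPRC and PDGFRB), 4 in the second, 2 in the third (VWF and COL1A1) and 2 in the brightest (CD68, at 8.30 to 8.55, and CDH5). Their summed log2 levels were 20.62 and 20.41 in the inhibitor arrays, against 21.16 and 20.90 in the control arrays, for 4 endothelial markers. The sums were 21.81 and 21.52 in the inhibitor arrays, against 20.91 and 20.90 in the control arrays, for 4 leukocyte markers, and 13.76 and 14.34 in the inhibitor arrays, against 14.74 and 14.07 in the control arrays, for 3 fibroblast markers. CDH5 gave 7.01 and 7.03 in the inhibitor arrays, against 8.13 and 8.06 in the control arrays (adjusted p = 0.101). None of the 24 measured markers passed an adjusted p of 0.05 in limma, and the part of such markers in the results was not tested. The arrays also differed in the spread of their values: the standard deviation over features was 2.08 and 2.13 in the inhibitor arrays, against 2.20 and 2.21 in the control arrays. Bright features were lower with the inhibitor in general. The median log2 difference (inhibitor minus control) was 0.075 in the dimmest bin, -0.01 in the second, -0.12 in the third, -0.205 in the brightest bin and -0.07 over all features. Since the replication genes are bright, each group of them is given with its median after cyclic loess scaling, which makes this difference close to 0 at every level (all features 0.0024, brightest bin -0.0013).

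With the miR-204-5p inhibitor the replication genes were lower almost throughout. The mean over the 52 genes was 7.46 and 7.57 log2 units in the inhibitor arrays, against 8.02 and 8.09 in the control arrays. Of the 52 genes, 51 had a log2 difference below 0, against 59.2% of all features, and the median difference was -0.56, or 1.48-fold lower. For 47 genes both inhibitor arrays lay below both control arrays, which held for 33.8% of all features, for 39.5% of the third bin and for 61.6% of the brightest. After cyclic loess 30 were lower at an unadjusted p under 0.05, against 6.93% of all features, 49 genes were below 0, against 49.6% of all features, the median was -0.39, or 1.31-fold lower, and 41 genes did not overlap, against 23.4% of all features. These shares describe the genes and are not tests, since the genes were picked with earlier results of these data known.

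No gene of the 52 passed an adjusted p of 0.05 in limma over all features, where 0 features, or 0%, were lower past that threshold and 11, or 0.0513%, higher. The lowest adjusted p among the 52 was 0.124. In simulated data this fit recovered 0% of 2-fold changes placed in 200 features, and no difference among the 52 genes reached 2-fold. Not passing this threshold therefore does not show that a gene was unchanged. Recovery where more than 200 of the 21448 features change was not simulated, and it may be higher. At an unadjusted p under 0.05, 41 of the 52 were lower and 0 higher, against 12.8% of all features lower, 16.2% of the third bin lower, 22.8% of the brightest bin lower and 5.11% of all features higher. Without control array 1 that count was 24, and without control array 2 it was 21. When limma's estimate of the spread was allowed to vary with the level of a feature (an intensity trend), 34 of the 52 passed an adjusted p of 0.05, all lower, against 6.09% of all features lower and 1.02% higher. That count was 0 without control array 1, 0 without control array 2, 0 without inhibitor array 1 and 0 without inhibitor array 2, in fits with 1 residual degree of freedom. With cyclic loess and the trend together 13 passed, against 1.3% of all features: MCM3, MCM5, MCM7, GINS1, GINS2, CDC6, GMNN, PRIM1, PRIM2, PCNA, RRM2, TK1 and CHAF1B. The same 13 passed with quantile normalization and the trend, against 1.19% of all features. The counts of each role group below are to be read against the shares given here and above. For the fits with the trend these shares are over all features and were not taken by bin. Of the 52 genes 29 lie in the brightest bin, where features were lower in general. An exact permutation of 2 arrays against 2 cannot give a p below 0.333, and single values were therefore not put to it.

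**Figure D1:**
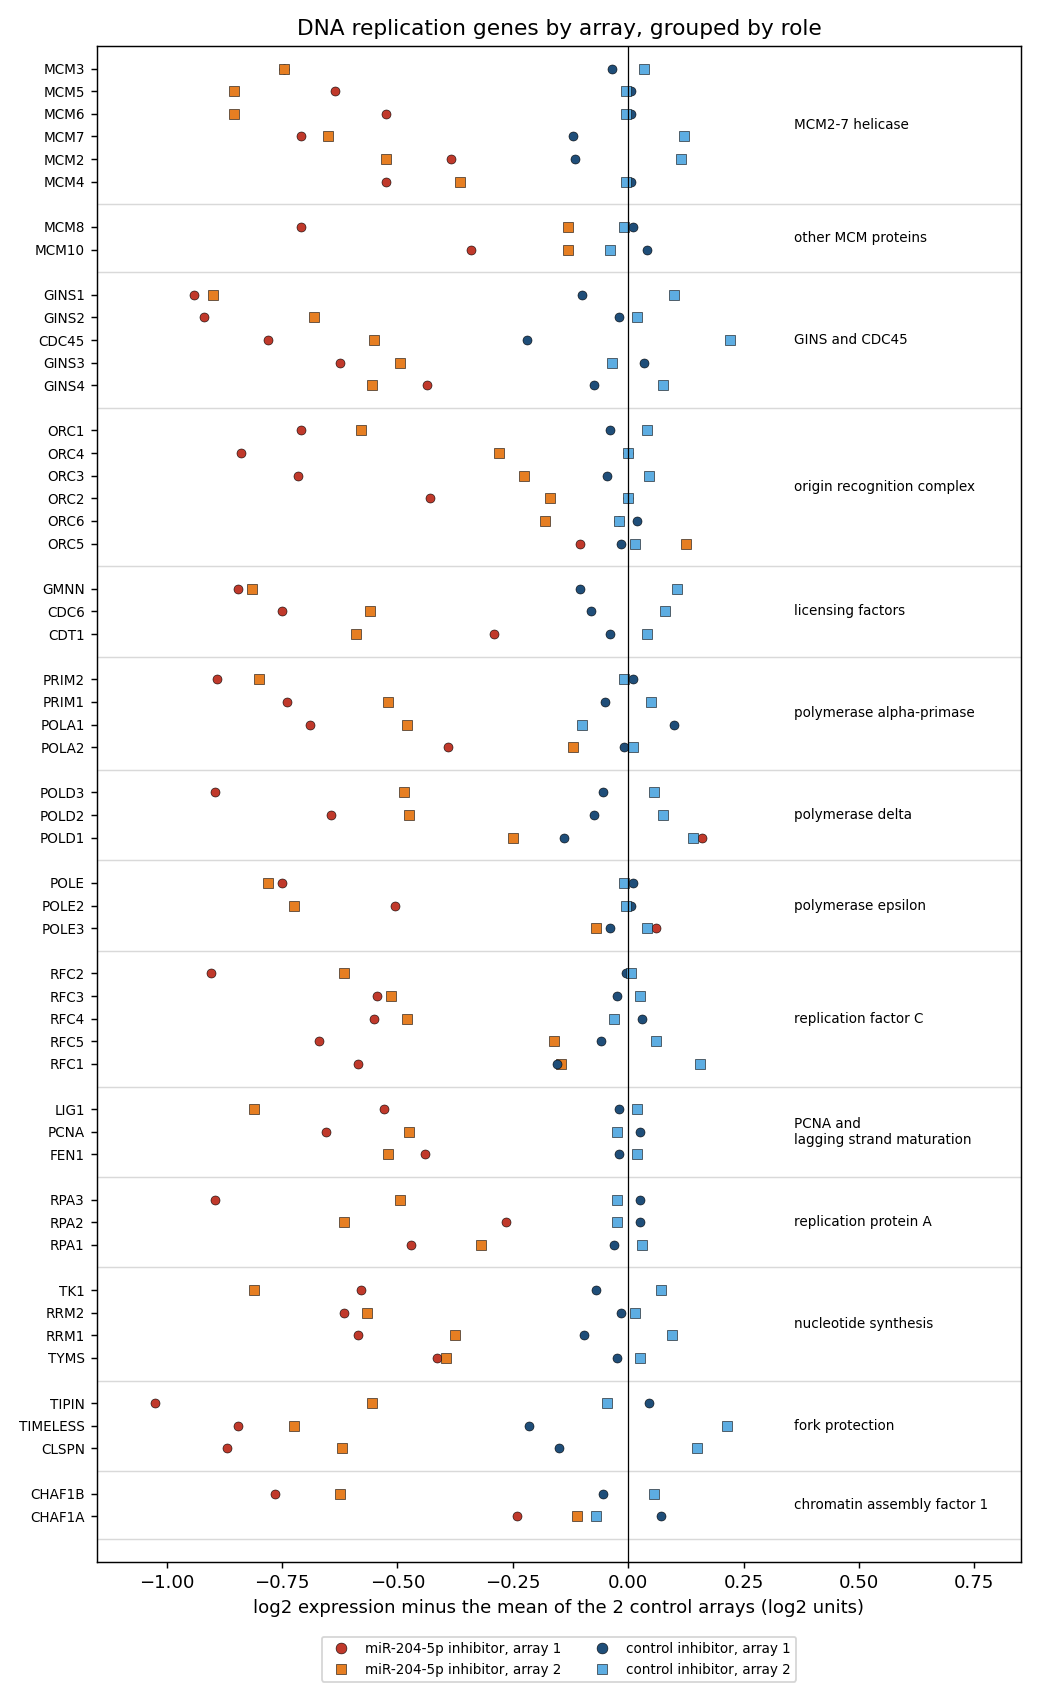
Each row is 1 of the 52 genes, grouped by role, and each point is 1 array, placed by its log2 expression minus the mean of the 2 control arrays of that gene. For 47 genes both miR-204-5p inhibitor arrays (red circles, orange squares) lie left of both control inhibitor arrays (dark blue circles, light blue squares); ORC5, ORC6, POLD1, POLE3 and RFC1 are the 5 genes that overlap. Equal values hide one another, as for the inhibitor arrays of MCM3 and for ORC6, where inhibitor array 1 equals control array 2.

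**Figure D2:**
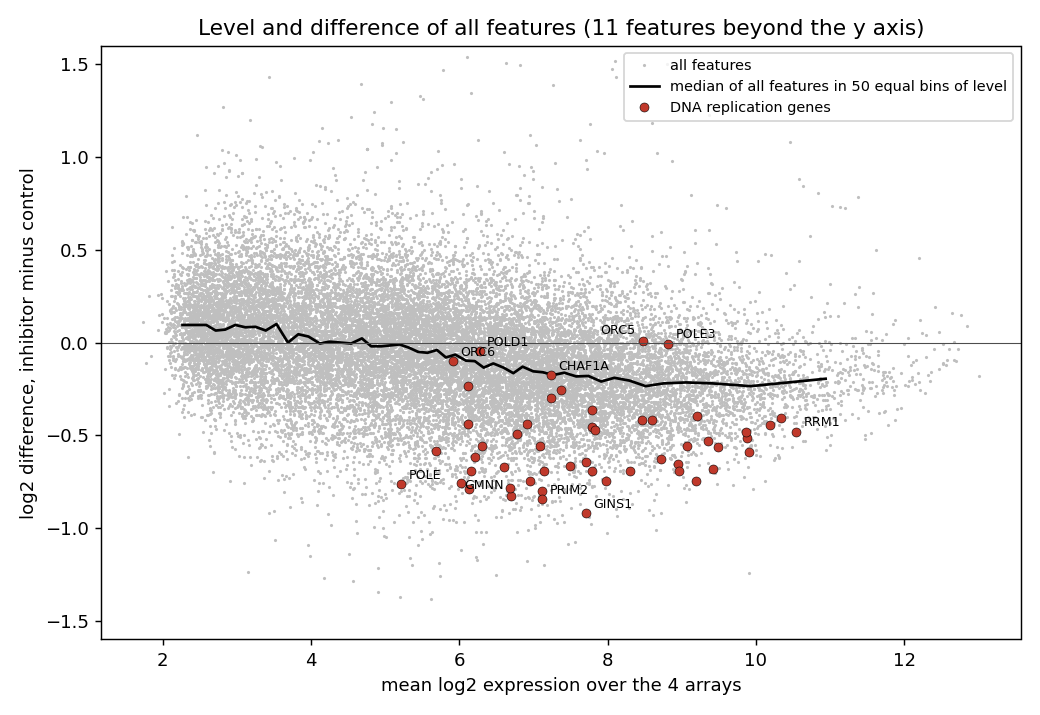
The x axis is the mean log2 expression over the 4 arrays and the y axis the log2 difference, inhibitor minus control; grey points are all 21448 features except 11 beyond the axis, the black line is their median in 50 bins of level, and red points are the 52 replication genes. The line sinks to about -0.2 among bright features, and most of the red points lie below it.

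The 6 subunits of the MCM ring, the core of the replicative helicase, were all lower without overlap, with a median log2 difference of -0.685 (-0.5 after cyclic loess). MCM3 gave 7.61 and 7.61 log2 units in the inhibitor arrays, against 8.32 and 8.39 in the control arrays, a difference of -0.745 (SE 0.14) with an adjusted p of 0.137. MCM5 stood at 8.93 and 8.71 in the inhibitor arrays, against 9.57 and 9.56 in the control arrays, and differed by -0.745 (SE 0.151). The values of MCM7 were 9.05 and 9.11 in the inhibitor arrays, against 9.64 and 9.88 in the control arrays, a difference of -0.68 (SE 0.154). For all 6 ring subunits the gap between the groups was larger than the gap between arrays of a group, though narrowly for MCM2 (0.27 against 0.23 between its control arrays). MCM6 gave 5.97 and 5.64 in the inhibitor arrays, against 6.5 and 6.49 in the control arrays (difference -0.69, SE 0.165). MCM4, with 9.89 and 10.05 in the inhibitor arrays, against 10.42 and 10.41 in the control arrays, differed by -0.445 (SE 0.145), and MCM2, with 7.63 and 7.49 in the inhibitor arrays, against 7.9 and 8.13 in the control arrays, by -0.455 (SE 0.157). The 6 differences lay between -0.745 and -0.445 with standard errors of 0.14 to 0.165, and their 95% intervals all overlapped. With the intensity trend 5 of the 6 passed, and MCM2 did not (adjusted p = 0.0521).

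Of the 4 ring genes with a promoter window in the RefSeq table (300 bases, mostly upstream of the annotated start, GRCh38.p14), MCM2, MCM3, MCM6 and MCM7, all 4 held an E2F word. The site nearest the start of each is shown, because these 4 genes shared such a word. It is given with 10 bases on either side, in the direction of the gene, with the word in capitals. MCM4 and MCM5 had no window, and among GINS and CDC45, 3 of the 4 genes with a window held an E2F word. In MCM2 the word overlaps its own copy on the other strand, and in MCM6 it overlaps a second kind of E2F word.
MCM2, chr3:127598403-127598430, plus strand: gtgaaccactTTTCGCGCgaaacctggt
MCM3, chr6:52284729-52284756, minus strand: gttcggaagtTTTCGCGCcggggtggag
MCM6, chr2:135876512-135876539, minus strand: gtcaggtttgGCGCGAAAtctccagctc
MCM7, chr7:100101389-100101416, minus strand: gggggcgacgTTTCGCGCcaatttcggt

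Of the other MCM proteins, MCM8, which pairs with MCM9 in recombination at forks, gave 8.1 and 8.68 in the inhibitor arrays, against 8.82 and 8.8 in the control arrays, a difference of -0.42 (SE 0.21) that rested mainly on inhibitor array 1. MCM10, a factor that helps to activate the loaded helicase, gave 5.89 and 6.1 in the inhibitor arrays, against 6.27 and 6.19 in the control arrays (difference -0.235, SE 0.151). Neither passed with the intensity trend, and after cyclic loess both overlapped between groups, with a median of -0.17. The median of the pair was -0.33 on the deposited values, -0.13 without inhibitor array 1 and -0.525 without inhibitor array 2.

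GINS and CDC45 turn the loaded ring into the moving helicase. All 5 genes were lower without overlap, with a median of -0.665 (-0.49 after cyclic loess). GINS1 had the largest difference among the 52 genes: it gave 7.23 and 7.27 in the inhibitor arrays, against 8.07 and 8.27 in the control arrays, a difference of -0.92 (SE 0.149), with a 95% interval of -1.27 to -0.565 and an adjusted p of 0.124. GINS2 gave 6.59 and 6.83 in the inhibitor arrays, against 7.49 and 7.53 in the control arrays, a difference of -0.8 (SE 0.153). The higher inhibitor array lay below the lower control array by 0.80 for GINS1 and 0.66 for GINS2. The values of GINS3 were 6.74 and 6.87 in the inhibitor arrays, against 7.4 and 7.33 in the control arrays (difference -0.56, SE 0.144). CDC45, which bridges the ring and GINS, gave 7.04 and 7.27 in the inhibitor arrays, against 7.6 and 8.04 in the control arrays, a difference of -0.665 (SE 0.193), and its control arrays were 0.44 apart. GINS4 had 6.59 and 6.47 in the inhibitor arrays, against 6.95 and 7.1 in the control arrays (difference -0.495, SE 0.148) and was the 1 gene of the 5 that did not pass with the intensity trend (adjusted p = 0.0607). Over the 11 subunits of the CMG helicase as a whole, the differences ran from -0.92 to -0.445 with a median of -0.68, the highest of them being that of MCM4. The promoter window of GINS1 is shown because it had the largest moderated statistic of the 52 genes. The capitals mark an inverted CCAAT word, the site of the factor NF-Y, and an inverted TTTGGCGC word that begins 6 bases after the start.
GINS1, chr20:25407423-25407722, plus strand: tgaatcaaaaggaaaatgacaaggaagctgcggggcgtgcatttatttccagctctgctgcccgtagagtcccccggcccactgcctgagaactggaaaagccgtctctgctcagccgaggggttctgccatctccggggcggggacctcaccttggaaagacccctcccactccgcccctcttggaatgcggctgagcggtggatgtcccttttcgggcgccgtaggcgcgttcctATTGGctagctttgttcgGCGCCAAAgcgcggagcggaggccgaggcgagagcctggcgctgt

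The origin recognition complex marks origins through the cell cycle. The differences of its 6 subunits ran from -0.645 to 0.01, their intervals all overlapped, and whether they differed was not tested. The median over its 6 genes was -0.385 (-0.2 after cyclic loess), and 4 of the 6 were lower without overlap (3 of the 6 after cyclic loess), near the 39.5% of the third bin and 61.6% of the brightest bin, in each of which 3 of the genes lie. Without inhibitor array 1 the median was -0.20. ORC1, the subunit whose level is known to cycle, gave 7.32 and 7.45 in the inhibitor arrays, against 7.99 and 8.07 in the control arrays, a difference of -0.645 (SE 0.145, adjusted p = 0.157), and it was the 1 subunit that passed with the intensity trend. ORC4 had 5.74 and 6.3 in the inhibitor arrays, against 6.58 and 6.58 in the control arrays (difference -0.56, SE 0.206). ORC3 had 7.35 and 7.84 in the inhibitor arrays, against 8.02 and 8.11 in the control arrays (difference -0.47, SE 0.194). In both genes the inhibitor arrays lay farther from each other than the nearer of them lay from the controls. ORC2 gave 6.96 and 7.22 in the inhibitor arrays, against 7.39 and 7.39 in the control arrays, a difference of -0.3 (SE 0.155) with an interval of -0.67 to 0.0699. ORC6 overlapped, inhibitor array 1 being equal to control array 2, with 5.94 and 5.78 in the inhibitor arrays, against 5.98 and 5.94 in the control arrays (difference -0.1, SE 0.146, interval -0.446 to 0.246). ORC5 had its control arrays between its inhibitor arrays, with 8.36 and 8.59 in the inhibitor arrays, against 8.45 and 8.48 in the control arrays, a difference of 0.01 (SE 0.152) and an interval of -0.352 to 0.372. It was the only one of the 52 genes with a difference above 0 on the deposited values, and it stood 0.22 above 0 after cyclic loess. The sign of so small a difference was not stable: it was -0.105 without inhibitor array 2 and -0.005 without control array 1. The promoter window of ORC5 is shown as that of a gene with a difference near 0, and it held none of the words searched.
ORC5, chr7:104207964-104208263, minus strand: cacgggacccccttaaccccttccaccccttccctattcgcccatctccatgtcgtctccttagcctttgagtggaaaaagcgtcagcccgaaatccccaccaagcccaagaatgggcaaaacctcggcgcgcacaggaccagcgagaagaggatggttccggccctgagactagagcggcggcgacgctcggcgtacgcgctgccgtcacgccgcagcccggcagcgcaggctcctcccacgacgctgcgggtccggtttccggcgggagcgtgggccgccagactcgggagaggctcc

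CDC6 and CDT1 load the MCM ring, and geminin, encoded by GMNN, binds CDT1 and blocks a second loading. All 3 were lower without overlap, with a median of -0.655 (-0.44 after cyclic loess). GMNN gave 6.27 and 6.3 in the inhibitor arrays, against 7.01 and 7.22 in the control arrays, a difference of -0.83 (SE 0.15, adjusted p = 0.134). CDC6 gave 8.53 and 8.72 in the inhibitor arrays, against 9.2 and 9.36 in the control arrays, a difference of -0.655 (SE 0.154). CDT1 had 6.84 and 6.54 in the inhibitor arrays, against 7.09 and 7.17 in the control arrays (difference -0.44, SE 0.162) and did not pass with the intensity trend, while the other 2 did. The loading factors and their inhibitor thus lay on the same side of the controls. GMNN has 2 promoter windows in the table. The window with an E2F word is shown because GMNN had the third largest statistic, with TTTGGCGC, which begins at position -80 from the start, and 2 inverted CCAAT words in capitals.
GMNN, chr6:24775163-24775462, plus strand: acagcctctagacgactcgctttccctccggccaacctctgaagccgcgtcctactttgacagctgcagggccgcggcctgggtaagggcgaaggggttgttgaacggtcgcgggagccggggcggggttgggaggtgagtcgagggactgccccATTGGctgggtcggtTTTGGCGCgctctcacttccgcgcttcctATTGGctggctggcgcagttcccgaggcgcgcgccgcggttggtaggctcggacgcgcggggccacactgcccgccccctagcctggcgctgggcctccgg

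Polymerase alpha-primase makes the RNA-DNA primers, and its 4 genes were lower without overlap (median -0.61, -0.47 after cyclic loess). PRIM2, the large primase subunit, gave 6.65 and 6.74 in the inhibitor arrays, against 7.55 and 7.53 in the control arrays, a difference of -0.845 (SE 0.141) with an interval of -1.18 to -0.51 and an adjusted p of 0.124. PRIM1, the catalytic primase subunit, gave 8.3 and 8.52 in the inhibitor arrays, against 8.99 and 9.09 in the control arrays (difference -0.63, SE 0.153). Both primase genes passed with the intensity trend. POLA1, the catalytic polymerase subunit, had 5.29 and 5.5 in the inhibitor arrays, against 6.08 and 5.88 in the control arrays (difference -0.585, SE 0.159). POLA2, the accessory subunit, had 7.11 and 7.38 in the inhibitor arrays, against 7.49 and 7.51 in the control arrays, a difference of -0.255 (SE 0.157) that was the smallest of the 4 and close to the median of the brightest bin. The downstream promoter window of PRIM2, the gene with the second largest statistic, is shown to set beside GINS1 and GMNN. Neither of its windows held a word searched.
PRIM2, chr6:57317380-57317679, plus strand: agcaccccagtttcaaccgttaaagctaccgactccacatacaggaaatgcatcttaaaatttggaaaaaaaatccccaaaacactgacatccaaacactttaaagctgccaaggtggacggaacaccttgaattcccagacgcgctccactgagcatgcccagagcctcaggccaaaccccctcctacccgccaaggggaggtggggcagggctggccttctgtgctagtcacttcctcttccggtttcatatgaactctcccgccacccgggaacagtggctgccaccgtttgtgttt

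Polymerase delta, which copies the lagging strand, had a median of -0.56 (-0.35 after cyclic loess). The differences of its 3 subunits ran from -0.69 to -0.045, their intervals all overlapped, and whether they differed was not tested. POLD3, an accessory subunit, gave 7.75 and 8.16 in the inhibitor arrays, against 8.59 and 8.7 in the control arrays, a difference of -0.69 (SE 0.18), and POLD2, the subunit that joins the others, gave 8.7 and 8.87 in the inhibitor arrays, against 9.27 and 9.42 in the control arrays, a difference of -0.56 (SE 0.152). Both were lower without overlap and passed with the intensity trend, but 0 of the 3 genes passed with cyclic loess and the trend together. POLD1, the catalytic subunit, overlapped: it gave 6.46 and 6.05 in the inhibitor arrays, against 6.16 and 6.44 in the control arrays, a difference of -0.045 (SE 0.193) with an interval of -0.505 to 0.415. Inhibitor array 1 was the highest of its 4 values and inhibitor array 2 the lowest. The sign of the POLD1 difference turned with the scaling (0.07 after cyclic loess). The upstream promoter window of POLD1 is shown as another gene with a difference near 0, and it held none of the words searched.
POLD1, chr19:50384073-50384372, plus strand: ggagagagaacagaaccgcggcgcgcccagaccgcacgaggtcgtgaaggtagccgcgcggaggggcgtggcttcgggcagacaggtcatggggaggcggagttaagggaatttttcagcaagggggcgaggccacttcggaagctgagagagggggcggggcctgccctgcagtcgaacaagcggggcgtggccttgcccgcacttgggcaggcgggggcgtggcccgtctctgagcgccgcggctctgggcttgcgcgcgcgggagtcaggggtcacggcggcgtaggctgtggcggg

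Polymerase epsilon, which copies the leading strand, had 2 subunits that were lower and 1 that overlapped, with a median of -0.615 (-0.51 after cyclic loess, and -0.31 with features above the median level, which leaves out POLE). POLE, the catalytic subunit, gave 4.85 and 4.82 in the inhibitor arrays, against 5.61 and 5.59 in the control arrays, a difference of -0.765 (SE 0.139, adjusted p = 0.134), and its arrays agreed within each group to 0.03. Its mean level lay in the second bin of features. POLE2, the second subunit, gave 6.01 and 5.79 in the inhibitor arrays, against 6.52 and 6.51 in the control arrays (difference -0.615, SE 0.151). POLE3, a small histone-fold subunit that also serves in a chromatin remodelling complex, gave 8.88 and 8.75 in the inhibitor arrays, against 8.78 and 8.86 in the control arrays, a difference of -0.005 (SE 0.145) with an interval of -0.349 to 0.339. Its groups overlapped, and after cyclic loess it stood 0.21 above 0. The POLE3 window that held a word searched is shown with that word, the E-box CACGTG, in capitals.
POLE3, chr9:113410325-113410624, minus strand: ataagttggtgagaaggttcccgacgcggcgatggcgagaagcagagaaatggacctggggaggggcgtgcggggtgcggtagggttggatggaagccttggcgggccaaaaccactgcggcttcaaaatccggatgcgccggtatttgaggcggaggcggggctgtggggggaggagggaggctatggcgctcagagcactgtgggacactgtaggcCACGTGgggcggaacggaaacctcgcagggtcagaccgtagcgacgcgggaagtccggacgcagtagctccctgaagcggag

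Replication factor C loads PCNA. Its 5 genes had a median of -0.515 (-0.3 after cyclic loess), and 4 were lower without overlap, or 3 after cyclic loess. Of the 5 genes 4 lie in the brightest bin, where 61.6% of features were lower without overlap. With cyclic loess and the trend together 0 of the 5 passed. RFC2 gave 5.49 and 5.78 in the inhibitor arrays, against 6.39 and 6.4 in the control arrays, a difference of -0.76 (SE 0.159). RFC3 gave 9.08 and 9.11 in the inhibitor arrays, against 9.6 and 9.65 in the control arrays (difference -0.53, SE 0.139). RFC4 gave 9.59 and 9.66 in the inhibitor arrays, against 10.17 and 10.11 in the control arrays (difference -0.515, SE 0.141). These 3 small subunits passed with the intensity trend. RFC5, with 8.0 and 8.51 in the inhibitor arrays, against 8.61 and 8.73 in the control arrays (difference -0.415, SE 0.199), and the large subunit RFC1, with 7.39 and 7.83 in the inhibitor arrays, against 7.82 and 8.13 in the control arrays (difference -0.365, SE 0.201), did not, and in RFC1 the higher inhibitor array lay 0.01 above the lower control array. Without inhibitor array 1 the difference was -0.16 for RFC5 and -0.145 for RFC1, and without inhibitor array 2 it was -0.67 for RFC5 and -0.585 for RFC1. Without control array 2 that of RFC1 was -0.21.

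PCNA, the sliding clamp, gave 9.11 and 9.29 in the inhibitor arrays, against 9.79 and 9.74 in the control arrays, a difference of -0.565 (SE 0.147). FEN1, the flap nuclease that trims Okazaki fragments, gave 9.66 and 9.58 in the inhibitor arrays, against 10.08 and 10.12 in the control arrays (difference -0.48, SE 0.141). LIG1, the ligase that joins them, gave 6.4 and 6.12 in the inhibitor arrays, against 6.91 and 6.95 in the control arrays (difference -0.67, SE 0.158). All 3 were lower without overlap and passed with the intensity trend, with a median of -0.565 (-0.35 after cyclic loess). PCNA and FEN1 lie in the brightest bin, where 61.6% of features were lower without overlap, and LIG1 in the third, where 39.5% were. With cyclic loess and the trend together 1 of the 3 passed, PCNA.

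Replication protein A covers single-stranded DNA at forks and in repair. Its small subunit RPA3 gave 6.59 and 6.99 in the inhibitor arrays, against 7.51 and 7.46 in the control arrays, a difference of -0.695 (SE 0.177). The middle subunit RPA2 had 6.07 and 5.72 in the inhibitor arrays, against 6.36 and 6.31 in the control arrays (difference -0.44, SE 0.168), and the large subunit RPA1 had 8.93 and 9.08 in the inhibitor arrays, against 9.37 and 9.43 in the control arrays (difference -0.395, SE 0.145). None of the 3 overlapped between groups, and RPA2 did not pass with the intensity trend. With cyclic loess and the trend together 0 of the 3 passed. Their median was -0.44 (-0.34 after cyclic loess). The 2 inhibitor arrays were 0.40 apart for RPA3 and 0.35 for RPA2, in opposite directions.

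The 4 genes of deoxynucleotide synthesis had a median of -0.535 (-0.32 after cyclic loess). All 4 were lower without overlap, as were 61.6% of the features in the brightest bin, where all 4 lie. They passed with the intensity trend, against 6.09% of all features. With cyclic loess and the trend together 2 of the 4 passed, TK1 and RRM2. TK1, the cytosolic thymidine kinase, gave 8.73 and 8.5 in the inhibitor arrays, against 9.24 and 9.38 in the control arrays, a difference of -0.695 (SE 0.157). RRM2, the small subunit of ribonucleotide reductase, gave 9.59 and 9.64 in the inhibitor arrays, against 10.19 and 10.22 in the control arrays, a difference of -0.59 (SE 0.139), and its arrays agreed within each group to 0.05. RRM1, the large subunit, gave 10.2 and 10.41 in the inhibitor arrays, against 10.69 and 10.88 in the control arrays (difference -0.48, SE 0.158). TYMS, thymidylate synthase, gave 10.12 and 10.14 in the inhibitor arrays, against 10.51 and 10.56 in the control arrays (difference -0.405, SE 0.139).

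The 3 genes of the fork protection complex had the lowest median of any role group, -0.785 (-0.65 after cyclic loess). TIPIN gave 5.5 and 5.97 in the inhibitor arrays, against 6.57 and 6.48 in the control arrays, a difference of -0.79 (SE 0.19). Its partner TIMELESS gave 6.23 and 6.35 in the inhibitor arrays, against 6.86 and 7.29 in the control arrays, a difference of -0.785 (SE 0.184). CLSPN, which encodes the checkpoint adaptor claspin, gave 6.45 and 6.7 in the inhibitor arrays, against 7.17 and 7.47 in the control arrays (difference -0.745, SE 0.174). None of them overlapped, before or after cyclic loess, against 39.5% of the third bin, in which all 3 lie. All 3 passed with the intensity trend, against 6.09% of all features. With cyclic loess and the trend together 0 of the 3 passed, against 1.3% of all features. Their standard errors of 0.174 to 0.19 were above the median of 0.153 over the 52 genes. Whether this group differed from the others was not tested.

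The 2 measured subunits of chromatin assembly factor 1, which places histones on new DNA, had a median of -0.435 (-0.26 after cyclic loess). CHAF1B gave 7.37 and 7.51 in the inhibitor arrays, against 8.08 and 8.19 in the control arrays, a difference of -0.695 (SE 0.147). CHAF1A gave 7.08 and 7.21 in the inhibitor arrays, against 7.39 and 7.25 in the control arrays, a difference of -0.175 (SE 0.148) with an interval of -0.527 to 0.177. CHAF1B passed with the intensity trend and CHAF1A did not (adjusted p = 0.512), and after cyclic loess CHAF1A stood at -0.01.

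Across the 52 genes, 31 were lower by at least 0.5 log2 units, 16 by between 0.2 and 0.5, and 5 had a difference above -0.2. Those 5 were CHAF1A, ORC6, POLD1, POLE3 and ORC5. For 41 genes the 95% interval lay below 0. Besides RFC1, RFC5 and the near-0 genes ORC5, POLD1 and POLE3, some differences moved by over 1.5 times with 1 array left out. Without inhibitor array 1 the difference was -0.13 for MCM8, -0.13 for MCM10, -0.17 for ORC2, -0.225 for ORC3, -0.28 for ORC4, -0.12 for POLA2, -0.18 for ORC6 and -0.11 for CHAF1A. Without inhibitor array 2 it was -0.71 for MCM8, -0.715 for ORC3, -0.02 for ORC6, -0.29 for CDT1, -0.39 for POLA2 and -0.265 for RPA2, and without control array 1 it was -0.105 for CHAF1A. None of these genes passed with the intensity trend. The inhibitor arrays were not alike for these genes: 37 of the 52 were higher in inhibitor array 2 than in array 1, against 52.3% of all features, and 14 were lower, with a median gap of 0.13, against 0.02 over all features. That gap was widest for the other MCM proteins (median 0.395), replication factor C (0.29), fork protection (0.25) and the origin recognition complex (0.245), and it went the other way for polymerase epsilon (-0.13), the clamp and maturation genes (-0.08) and the MCM ring (-0.07). Relative to the control mean, the MCM ring genes averaged -0.59 in inhibitor array 1 and -0.67 in array 2, and the origin recognition genes averaged -0.47 and -0.22.

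**Figure D3:**
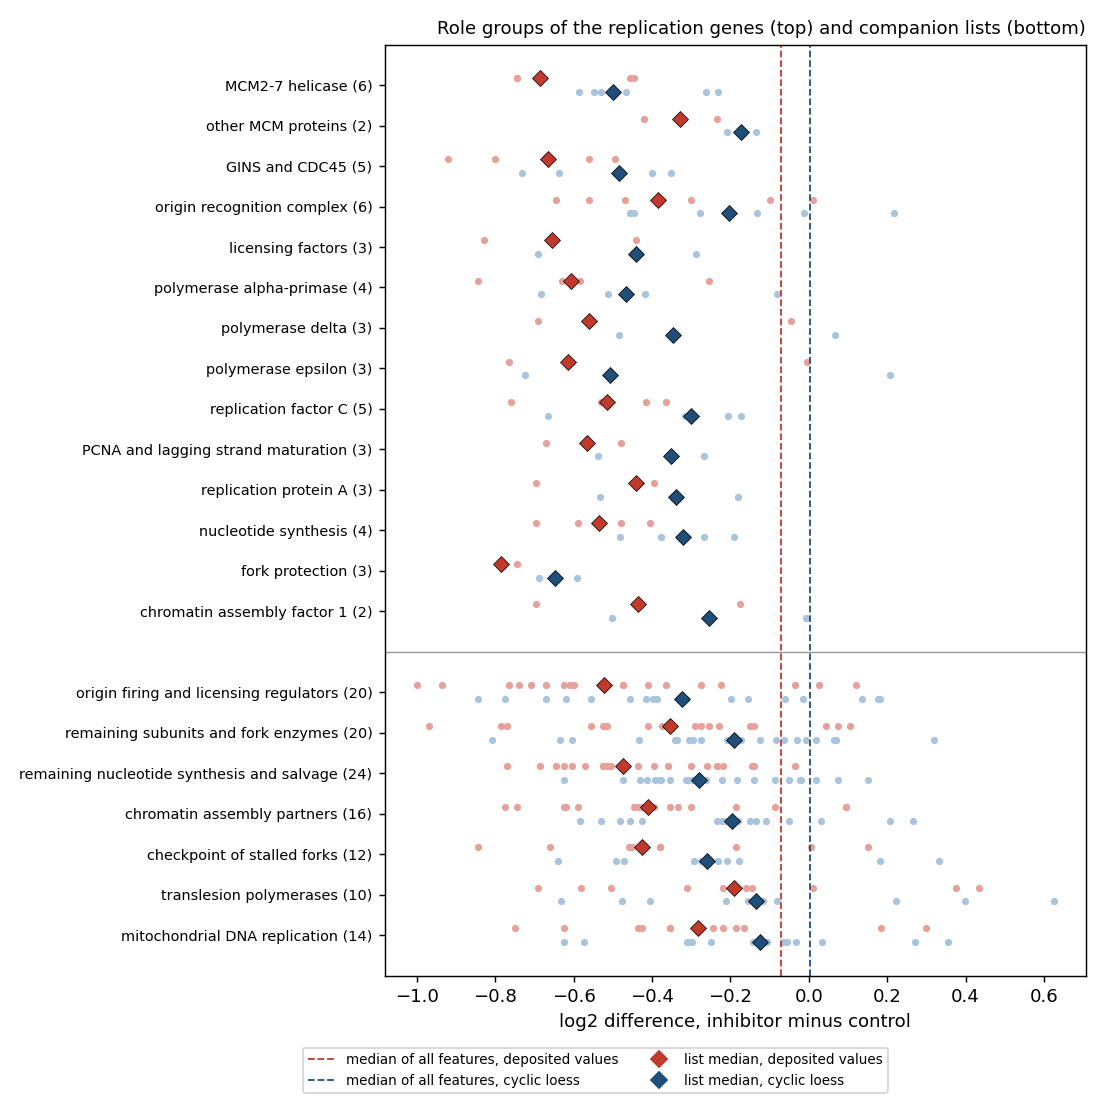
Each row is a role group of the replication genes (top) or a companion list (bottom), with its number of genes in brackets; small points are genes, diamonds are medians and the x axis is the log2 difference, inhibitor minus control. Red shows the deposited values and blue the values after cyclic loess, with dashed lines at the median of all features (-0.07 and 0.0024); all list medians lie left of the line of their own colour.

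Other genes of DNA replication were taken from 7 companion lists of 131 genes, of which 116 were measured here. None of the 116 passed an adjusted p of 0.05 on the deposited values. In total 102 were lower, against 59.2% of all features, and 14 higher, with a median of -0.40 (-0.23 after cyclic loess). At an unadjusted p under 0.05, 61 were lower and 1 higher, against 12.8% and 5.11% of all features. With the intensity trend 39 passed lower and 1 higher, against 6.09% and 1.02% of all features, and the counts of each list are to be read against the same shares.

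Regulators of origin licensing and firing had the lowest median of the 7 lists, -0.52 (-0.32 after cyclic loess), with 18 of 20 lower and 9 past the threshold with the trend, all lower. CDC7, the kinase that phosphorylates the MCM ring to start a fork, gave 6.52 and 6.51 in the inhibitor arrays, against 7.51 and 7.52 in the control arrays, a difference of -1.0 (SE 0.139, adjusted p = 0.104), and its arrays agreed within each group to 0.01. FBXO5, also called EMI1, an inhibitor of the anaphase-promoting complex, gave 6.62 and 6.58 in the inhibitor arrays, against 7.42 and 7.65 in the control arrays, a difference of -0.935 (SE 0.152). Both differences were larger than that of GINS1. Among remaining subunits and fork enzymes, 17 of 20 were lower and 6 passed with the trend (median -0.355, -0.19 after cyclic loess). EXO1, a DNA exonuclease, gave 6.43 and 6.77 in the inhibitor arrays, against 7.65 and 7.49 in the control arrays (difference -0.97, SE 0.172). PARP1, the poly(ADP-ribose) polymerase, gave 6.76 and 6.86 in the inhibitor arrays, against 7.54 and 7.62 in the control arrays (difference -0.77, SE 0.143).

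All 24 measured genes of remaining nucleotide synthesis and salvage were lower on the deposited values, and 11 passed with the trend (median -0.475, -0.28 after cyclic loess). Of the 24 genes 18 lie in the brightest bin, where features were lower in general. After cyclic loess 21 of the 24 were below 0, and 5 passed with cyclic loess and the trend together. DCK, deoxycytidine kinase, gave 6.49 and 6.31 in the inhibitor arrays, against 7.24 and 7.1 in the control arrays (difference -0.77, SE 0.152), and PPAT, the first enzyme of purine synthesis, gave 8.36 and 8.36 in the inhibitor arrays, against 9.07 and 9.02 in the control arrays (difference -0.685, SE 0.139). Of 16 chromatin assembly partners, 14 were lower and 9 passed with the trend (median -0.41, -0.196 after cyclic loess), or 2 with cyclic loess and the trend together. MMS22L, a fork repair factor, gave 7.35 and 7.44 in the inhibitor arrays, against 8.08 and 8.26 in the control arrays (difference -0.775, SE 0.149). HJURP, the chaperone of the centromeric histone, gave 9.7 and 9.79 in the inhibitor arrays, against 10.4 and 10.58 in the control arrays (difference -0.745, SE 0.149). Of 12 checkpoint genes, 10 were lower and 2 passed with the trend, both lower: CHEK1, the kinase of the replication checkpoint (7.68 and 7.89 in the inhibitor arrays, against 8.54 and 8.72 in the control arrays, difference -0.845, SE 0.158), and HLTF, a fork remodeller (7.45 and 7.26 in the inhibitor arrays, against 8.02 and 8.01 in the control arrays, difference -0.66, SE 0.148).

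The 10 translesion and repair polymerase genes, which bypass or fill damaged DNA, were mixed, with 7 lower, 3 higher and a median of -0.19. MAD2L2 gave 7.23 and 6.99 in the inhibitor arrays, against 7.76 and 7.62 in the control arrays (difference -0.58, SE 0.158) and passed with the trend, and PRIMPOL gave 4.83 and 4.78 in the inhibitor arrays, against 5.21 and 5.41 in the control arrays (difference -0.505, SE 0.149) and did not. POLH, the polymerase that bypasses ultraviolet damage, was the 1 companion gene that passed higher with the trend; it gave 7.93 and 7.99 in the inhibitor arrays, against 7.5 and 7.55 in the control arrays, a difference of 0.435 (SE 0.14), and was picked out after its values were seen.

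Mitochondrial DNA replication uses its own machinery and was listed for contrast. Of its 14 measured genes, 12 were lower, with a median of -0.28 (-0.12 after cyclic loess), and 1 passed with the trend, a share near the 6.09% of all features. TWNK, the mitochondrial helicase, gave 5.81 and 6.42 in the inhibitor arrays, against 6.89 and 6.84 in the control arrays (difference -0.75, SE 0.216), passed, but its difference was -0.445 without inhibitor array 1. LIG3, a ligase of mitochondria and of nuclear repair, gave 5.12 and 5.07 in the inhibitor arrays, against 5.6 and 5.84 in the control arrays (difference -0.625, SE 0.154), and TFB2M, a mitochondrial transcription factor, gave 7.39 and 7.4 in the inhibitor arrays, against 7.95 and 7.71 in the control arrays (difference -0.435, SE 0.153). The list median was nearer to that of all features than any role group's was, but the difference between nuclear and mitochondrial lists was not tested.

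RRM2B and TK2, paralogs that serve the same reaction outside S phase or in mitochondria, were set beside RRM2 and TK1. MCM9 was set beside MCM8, with which it pairs. RRM2 differed by -0.59, whereas RRM2B, the p53-induced small subunit used outside S phase, gave 9.44 and 9.73 in the inhibitor arrays, against 9.76 and 9.69 in the control arrays, a difference of -0.14 (SE 0.16) that overlapped between groups and was 0.07 after cyclic loess. TK1 differed by -0.695, and TK2, the mitochondrial thymidine kinase, gave 4.0 and 4.09 in the inhibitor arrays, against 4.19 and 4.46 in the control arrays, a difference of -0.28 (SE 0.159) at levels in the second bin of features. MCM9 gave 6.64 and 6.65 in the inhibitor arrays, against 6.95 and 7.29 in the control arrays, a difference of -0.475 (SE 0.166), close to the -0.42 of its partner MCM8. TK1 lies in the brightest bin, where features were lower in general. After cyclic loess the differences were -0.48 for TK1, -0.30 for TK2, -0.38 for RRM2, -0.21 for MCM8 and -0.33 for MCM9. On the deposited values without control array 2 the difference was -0.145 for TK2 and -0.305 for MCM9. The difference within each pair was not tested.

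Promoter windows were searched for words, which the choice of genes by name had not used. Many replication genes are known to be under E2F factors, however. The share with E2F words is therefore tied to that choice and is no result of these arrays. RefSeq windows were matched for 46 of the 52 genes and for 14250 genes of the array. The words TTTCGCGC, TTTGGCGC, TTTCCCGC and TTTGCCGC were searched on both strands as E2F words, and a gene counted once if any of its windows held any of them. Of the 46 genes, 22, or 47.8%, held an E2F word, against 5.35% of the array's genes and 3.99% of all 27305 genes in the table. By word, TTTCCCGC was found in 11 of the 46 genes (2.68% of the array's genes), TTTGGCGC in 9 (1.04%), TTTCGCGC in 5 (0.905%) and TTTGCCGC in 0 (0.926%). The CCAAT word was found in 29 of the 46, or 63.0%, against 42.3%, and the CACGTG word in 10, or 21.7%, against 10.8%. E2F words can overlap each other, as in the MCM6 site shown above.

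By role, an E2F word was found in 4 of 4 MCM ring genes, 3 of 3 licensing factors, 3 of 4 genes of GINS and CDC45, 2 of 3 each of polymerase epsilon, of the clamp and maturation genes and of fork protection, and 2 of 4 of polymerase alpha-primase. It was found in 1 of 6 genes of the origin recognition complex, namely ORC3, in 1 of 5 of replication factor C, 1 of 4 of nucleotide synthesis, 1 of 2 other MCM genes, 0 of 2 of polymerase delta, 0 of 1 of replication protein A and 0 of 2 of chromatin assembly factor 1. The 22 genes with an E2F word had a median log2 difference of -0.635, with a range of -0.92 to -0.255, and 22 of 22 were lower without overlap between groups on the deposited values, against 33.8% of all features and 61.6% of the brightest bin. After cyclic loess 20 of the 22 did not overlap, against 23.4% of all features, the exceptions being MCM8 and POLA2. The 24 without one had a median of -0.50, with a range of -0.845 to 0.01, and 19 of 24 did not overlap, or 15 of 24 after cyclic loess. The ranges overlapped widely, and PRIM2, with no such word, was among the 3 genes with the largest statistic. After cyclic loess the medians were -0.49 with a word and -0.28 without. The single E2F words were not alike on the deposited values. Medians with and without were -0.68 and -0.56 for TTTCGCGC, -0.69 and -0.53 for TTTGGCGC, and -0.565 and -0.56 for TTTCCCGC. For CCAAT they were -0.63 and -0.515 (-0.44 and -0.30 after cyclic loess), and for CACGTG -0.4675 and -0.5875. Whether E2F words and the other words differed in this was not tested. All 5 genes that overlapped between groups (ORC5, ORC6, POLD1, POLE3 and RFC1) were among the 24 without an E2F word. These are counts of letters in a window, and neither binding nor E2F activity was measured here. A gene without a word in its window may still be under E2F factors.

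**Figure D4:**
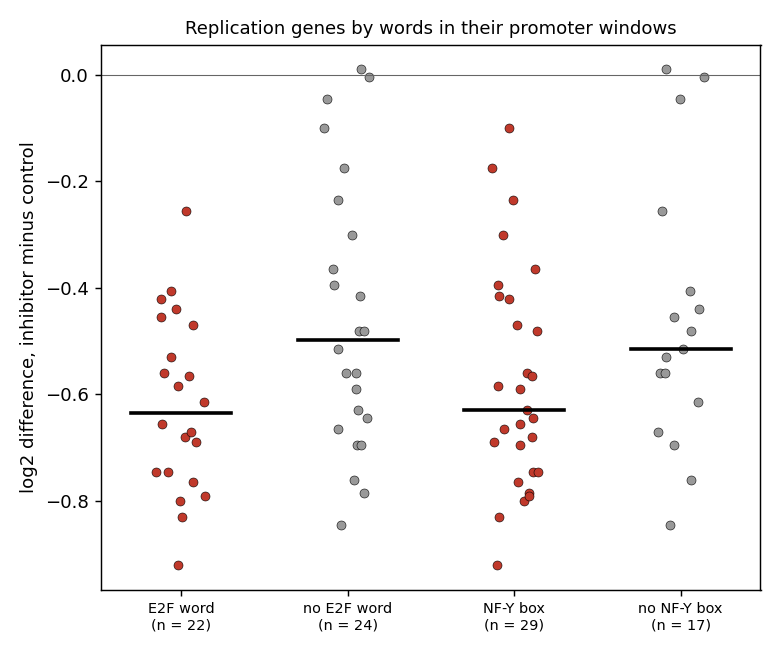
Points are the 46 replication genes with a RefSeq promoter window, split by whether a window holds an E2F word (left pair) or a CCAAT word, the NF-Y box (right pair); the y axis is the log2 difference, inhibitor minus control, and bars are medians. Genes with an E2F word lie between -0.92 and -0.255, and the genes near 0 are among those without one. The medians are -0.635 with an E2F word and -0.50 without, and -0.63 with a CCAAT word and -0.515 without.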

How the data were processed

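Total RNA of 4 samples was measured on Clariom S arrays, 2 with the miR-204-5p inhibitor and 2 with the control inhibitor. The deposited values are log2 expression per feature, for which the submitters' processing notes name RMA and Transcriptome Analysis Console 4.0; parameters and build are not given in the sources used here. Values run from 1.61 to 13.1, and the number of arrays limits their precision. Features were named from the platform annotation: 17709 of 21448 have 1 symbol and 3739 were left unnamed.

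Groups were compared over all features with limma 3.58.1 (R 4.3.3, lmFit and eBayes, group as the only term), with Benjamini-Hochberg adjustment over all features and a threshold of 0.05. The fit had 2 residual and 4.78 prior degrees of freedom. It was tested on simulated data. Alternatives were an intensity trend, a robust prior, a replicate block, quantile, equal-median and cyclic loess scaling, filters on level, and leaving out each array. Cyclic loess with the trend, and leaving out arrays with the trend, were chosen after seeing the data. The replication genes, companion lists and markers were chosen with earlier results of these data known, so no list was tested. Named genes are, in each role group, up to 3 with the largest moderated statistic, the smallest, and those that overlap between groups, and in each companion list the 2 largest (3 for mitochondrial genes), plus 3 paralog pairs; other replication genes are given as well. Promoters are RefSeq windows of GRCh38.p14; MCM4, MCM5, GINS4, POLD3, RPA2 and RPA3 were not matched.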

Additional observations from a re-analysis of the deposited data

How the results depend on the processing

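No replication or named companion gene passed limma's adjusted p of 0.05 with the robust prior, the replicate block, quantile normalization, equal array medians or cyclic loess alone. Over all features, the deviations of same-numbered arrays were hardly correlated between the groups (0.00579). Whether same-numbered arrays were prepared together cannot be told from this. With the replicate block 40 of the 52 genes were lower at an unadjusted p under 0.05. With that block 0 features were higher past the adjusted threshold, against 11 without it. Over all features the adjusted calls numbered 1306 lower and 219 higher with the intensity trend, 255 lower and 304 higher with quantile normalization and the trend, 279 lower and 373 higher with cyclic loess and the trend, 10 lower and 28 higher with features above the 25th percentile of level, 867 lower and 144 higher with features above the median level, and 0 higher with quantile normalization. Of the 52 replication genes 34 passed lower with the intensity trend, 13 with quantile normalization and the trend, and 13 with cyclic loess and the trend. Among the 51 replication genes above the median level, 31 passed when features above the median were fitted alone. In the companion lists, in the order firing, subunits, salvage, chromatin, checkpoint, translesion and mitochondrial, 9, 6, 11, 9, 2, 1, 1 genes passed lower with the trend, 9, 7, 7, 5, 2, 1, 1 with features above the median, and 6, 3, 5, 2, 1, 0, 0 with cyclic loess and the trend (the same counts with quantile normalization and the trend); POLH was the 1 higher call in each fit with the trend. With features above the 25th percentile 1 firing gene passed. Medians after quantile normalization and after cyclic loess, with or without the trend, were -0.384 and -0.388 for the 52 genes, -0.50 and -0.50 for the MCM ring, -0.494 and -0.485 for GINS and CDC45, -0.214 and -0.204 for origin recognition complex, -0.443 and -0.442 for licensing factors, -0.473 and -0.466 for polymerase alpha-primase, -0.356 and -0.347 for polymerase delta, -0.514 and -0.507 for polymerase epsilon, -0.283 and -0.30 for replication factor C, -0.351 and -0.351 for the clamp and maturation genes, -0.34 and -0.339 for replication protein A, -0.325 and -0.322 for nucleotide synthesis, -0.265 and -0.255 for chromatin assembly factor 1, -0.331 and -0.323 for origin firing and licensing regulators, -0.20 and -0.19 for remaining subunits and fork enzymes, -0.285 and -0.279 for remaining nucleotide synthesis and salvage, -0.196 and -0.196 for chromatin assembly partners, -0.275 and -0.259 for checkpoint of stalled forks, -0.141 and -0.135 for translesion polymerases, -0.125 and -0.124 for mitochondrial DNA replication. With equal array medians they were -0.62 for the MCM ring, -0.50 for the clamp and maturation genes, -0.375 for replication protein A, -0.47 for nucleotide synthesis, -0.29 for remaining subunits and fork enzymes, -0.345 for chromatin assembly partners, -0.125 for translesion polymerases, -0.217 for mitochondrial DNA replication. With features above the median they were -0.31 for polymerase epsilon, -0.367 for remaining subunits and fork enzymes, -0.15 for translesion polymerases. Leaving out 1 array gave medians from -0.63 to -0.52 for the 52 genes, -0.713 to -0.58 for the MCM ring, -0.525 to -0.13 for other MCM proteins, -0.82 to -0.555 for GINS and CDC45, -0.57 to -0.203 for origin recognition complex, -0.75 to -0.575 for licensing factors, -0.715 to -0.50 for polymerase alpha-primase, -0.645 to -0.475 for polymerase delta, -0.725 to -0.505 for polymerase epsilon, -0.585 to -0.48 for replication factor C, -0.59 to -0.52 for the clamp and maturation genes, -0.495 to -0.425 for replication protein A, -0.59 to -0.48 for nucleotide synthesis, -0.895 to -0.595 for fork protection, -0.502 to -0.367 for chromatin assembly factor 1, -0.62 to -0.432 for origin firing and licensing regulators, -0.385 to -0.34 for remaining subunits and fork enzymes, -0.55 to -0.388 for remaining nucleotide synthesis and salvage, -0.425 to -0.403 for chromatin assembly partners, -0.535 to -0.29 for checkpoint of stalled forks, -0.247 to -0.14 for translesion polymerases, -0.33 to -0.255 for mitochondrial DNA replication; 21 to 43 replication genes were lower at an unadjusted p under 0.05, and no replication, companion or other feature passed the adjusted threshold in either direction. The sign of POLD1 turned: 0.0638 with quantile normalization, 0.02 with equal array medians, 0.0673 with cyclic loess, 0.16 without inhibitor array 2, 0.095 without control array 2. Over the 4 fits that leave out 1 array POLD1 ran from -0.25 to 0.16. The sign of POLE3 turned: 0.204 with quantile normalization, 0.06 with equal array medians, 0.207 with cyclic loess, 0.06 without inhibitor array 2, 0.035 without control array 2. Over the 4 fits that leave out 1 array POLE3 ran from -0.07 to 0.06. The sign of RRM2B turned: 0.0775 with quantile normalization, 0.0738 with cyclic loess, 0.005 without inhibitor array 1. Over the 4 fits that leave out 1 array RRM2B ran from -0.285 to 0.005. The sign of ORC5 turned: -0.105 without inhibitor array 2, -0.005 without control array 1. Over the 4 fits that leave out 1 array ORC5 ran from -0.105 to 0.125. The causes were not tested. Averaging features of 1 symbol changed nothing, since each gene here has 1 feature, and overlap between groups was not recomputed with an array left out. Changes of 2-fold simulated in 200 features were recovered in 0% of cases and 4-fold ones in 97.9%, in the fit without the trend. Neither the number of arrays nor the number of changed features was varied. Neither detection calls nor signal over background were used here.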
